A study of Mus musculus with 35 samples.

Results

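The genotype by diet interaction in brown adipose tissue of mice aged 21 weeks is, for each gene, the change from normal to high fat diet in Suv420h knockout mice minus the same change in control mice. It was formed from all 20 libraries whose titles place them in the second experiment, out of 35 libraries in the series. All 20 came from female mice, in 4 groups of 5: control on normal diet, control on high fat diet, Suv420h double knockout on normal diet and Suv420h double knockout on high fat diet. The diets were given for 14 weeks, and the high fat diet supplied 45 kJ% of its energy as fat. The labels name neither the allele nor a Cre driver behind the knockout. The labels do not say whether the 5 libraries of a group are 5 animals, so each p-value reflects only how far these libraries differ, part of which may be technical.

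Suv420h1 and Suv420h2 (annotated Kmt5b and Kmt5c) add methyl groups to lysine 20 of histone H4, a mark tied to compacted chromatin. Brown fat burns fatty acids in its mitochondria to make heat through the uncoupling protein Ucp1, and the nuclear receptor Pparg drives the fat cell programme. A high fat diet changes the fuel reaching this tissue, and the series title names Pparg, energy expenditure and environmental stimuli as the question. The interaction asks whether the knockout changed the response to the diet. A positive value means that the knockout tissue moved further up, or less far down, on high fat diet than control tissue did.

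Libraries held 2400073 to 7700010 counts, each count a read from the 3' end region of an RNA. Levels are CPM, counts scaled to a common TMM-adjusted library size. Ucp1 stood between 2570 and 11600 CPM in every library, and Cidea, another brown fat marker, between 4040 and 12000 CPM. Skeletal muscle markers, summed over the list, differed most between libraries: 313, 45900, 8660, 22800 and 2250 CPM in the 5 control libraries on normal diet, 110 to 201 CPM in 4 control libraries on high fat diet with 5350 CPM in replicate 3, 145 to 2740 CPM in knockout on normal diet and 152 to 273 CPM in knockout on high fat diet. Replicates 2 and 4 of control on normal diet stood apart on the first principal component, which held 33.9% of the variance. The median SD of a gene within a group was 0.53 (log2 CPM) in control on normal diet and 0.36, 0.33 and 0.31 in control on high fat diet, knockout on normal diet and knockout on high fat diet. A second difference between libraries was the level of Usmg5, a small protein of the mitochondrial ATP synthase. It lay at 24.1 to 42.2 CPM in 6 libraries (control on normal diet 1, 2 and 4, control on high fat diet 4 and 5, knockout on high fat diet 2) and at 125 to 556 CPM in the others. The split was noticed after the values were seen. Of 8600 genes, 503 had a within-group correlation with Usmg5 above 0.8 and 158 below -0.8. The part of muscle content and of this split in the results was not tested beyond the fits given beside them.

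**Figure D1:**
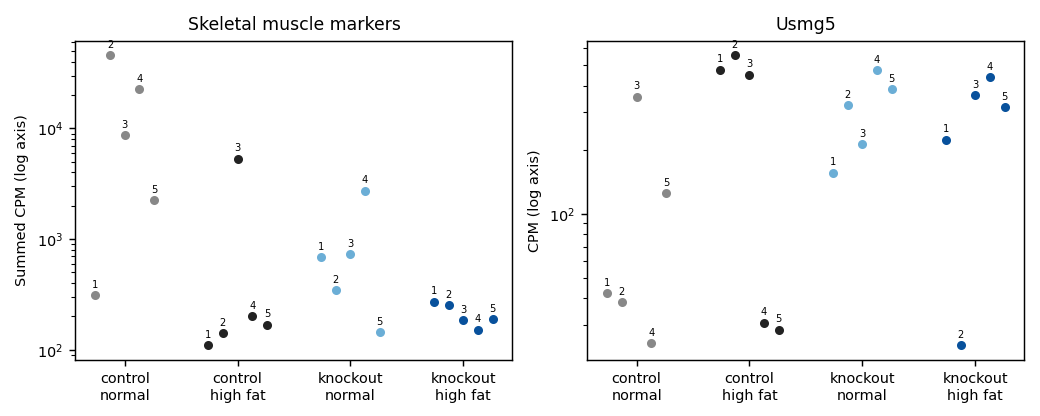
Summed CPM of the skeletal muscle markers (left, log axis) and CPM of Usmg5 (right, log axis) in each of the 20 libraries, with the replicate number above each point. Muscle markers reach 45900 CPM in control on normal diet, and the 6 libraries below 50 CPM of Usmg5 include none of knockout on normal diet.

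No gene was called for the interaction. With edgeR's quasi-likelihood test, 0 of 12082 genes (0%) had a Benjamini-Hochberg adjusted p below 0.05, and the smallest adjusted p was 0.17. At an unadjusted p below 0.05 there were 772 genes (6.39%), 418 (3.46%) with a positive and 354 (2.93%) with a negative interaction. limma-voom called 0 genes, while DESeq2 called 12, of which 4 were higher and 8 lower. The 8 lower were muscle genes with an edgeR unadjusted p of 0.364 to 0.529, or genes that averaged only 1.03 to 4.59 CPM. The interaction had a median SE of 0.5 on the log2 scale, against 0.35 for each of the simple effects, since it combines 4 group means. The median interaction was -0.04, and its quartiles were -0.41 and 0.34.

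The simple effects behind the interaction each gave calls. The diet changed 96 genes in control (0.795%; 49 higher, 47 lower on high fat diet) and 45 genes in knockout (0.372%; 22 higher, 23 lower). The knockout changed 320 genes on normal diet (2.65%; 156 higher, 164 lower) and 14 genes on high fat diet (0.116%; 12 higher, 2 lower). A larger count on one diet does not show a difference between diets, because the interaction itself was called for none of these genes. Of the 320 genes called on normal diet, 276 had the same sign on high fat diet (86.2%, against 62.6% of all genes), with a median size of 1.33 on normal diet and 0.38 in that direction on high fat diet (log2). The genes were picked for their size on normal diet, so these sizes give no test of a difference between diets. Of the 96 genes that the diet changed in control, 82 had the same sign in knockout (85.4%, against 60% of all genes). The counts depended on single libraries: the diet count in control ranged from 21 without replicate 2 of control on high fat diet to 358 without replicate 3 of control on normal diet, and the knockout count on normal diet ranged from 127 without replicate 2 of knockout on normal diet to 888 without replicate 3 of control on normal diet. The diet count in knockout fell to 6 without replicate 1 of knockout on high fat diet. With the muscle score, the mean log2 level of the muscle markers, as a covariate, 2 genes were called for diet in control and 37 for knockout on normal diet.

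Genes called in both strata come next. They were picked for those calls, so the sizes of their interactions give no test of a shared response. The diet changed 8 genes in both genotypes, 8.33% of the 96 called in control and 17.8% of the 45 called in knockout. Fabp3, a fatty acid binding protein, stood at 1130, 1120, 1300, 1290 and 1080 CPM in control on normal diet and 2800, 3200, 1960, 4190 and 2690 CPM under high fat feeding. The knockout libraries held 1020, 584, 1370, 1590 and 1410 CPM on normal diet and 3420, 4210, 2270, 2540 and 2730 CPM under high fat feeding. The diets did not overlap in either genotype, and the increase was 1.32 in control (adjusted p = 0.00679) and 1.35 in knockout (adjusted p = 0.0124). Its interaction was 0.02 with a 95% interval from -0.65 to 0.69. Prelp, a matrix proteoglycan, rose by 1.13 and 0.94 and had an interaction of -0.19 (-0.73 to 0.35). The lysosomal protease Ctsz (1.34 and 1.34), S100a13 (1.21 and 1.07), the receptor Lgr6 (1.22 and 1.37) and Gnas, the stimulatory G protein subunit (1.77 and 1.10), also rose in both genotypes. Flywch1 fell in both (-1.49 and -1.52). Cyp1a1, a cytochrome P450 of the aryl hydrocarbon receptor response, had 0 CPM in all 10 libraries on high fat diet and 0.282 to 10.2 CPM in those on normal diet.

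The knockout changed 8 genes on both diets, 2.5% of the 320 called on normal diet and 57.1% of the 14 called on high fat diet. Wdfy1, an endosomal adaptor protein (chromosome 1, 79702262 to 79776143, GRCm38), stood at 6.59, 9.77, 10.9, 0.899 and 7.01 CPM in control and at 59.4, 55.5, 39, 46.1 and 27.4 CPM in knockout on normal diet. On high fat diet it stood at 10.6, 5.65, 12.5, 7.5 and 9.29 CPM in control and at 44.6, 41.5, 43.2, 50 and 67.8 CPM in knockout. Genotypes did not overlap on either diet, and the knockout effect was 2.63 on normal and 2.43 on high fat diet (adjusted p = 0.000136 and 0.000335), with an interaction of -0.19 (-1.12 to 0.73). Carbonic anhydrase Car3 rose by 1.05 and 1.44, Hddc3 by 2.05 and 2.01, and the aldo-keto reductase Akr1c13 by 2.27 and 1.73. Eps8l1 fell on both diets, with 1.5 to 13.8 CPM in control and 0 to 0.188 CPM in knockout libraries. It lies on chromosome 7 (4460638 to 4480487), close to the targeted gene Suv420h2 (4740092 to 4747514). Whether its fall is tied to that position was not tested.

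The targeted genes did not show an interaction past the threshold. Suv420h1 (chromosome 19, 3767362 to 3818303) averaged 42.4 ± 6.82 and 31.7 ± 13.6 CPM in control on normal and high fat diet, and 39.5 ± 10.6 and 39.1 ± 7.14 CPM in knockout (SD, n = 5 each). Its interaction was 0.41 (-0.28 to 1.10). Suv420h2 (chromosome 7, 4740092 to 4747514) fell in control on high fat diet by 1.5 (log2, adjusted p = 0.0334) and in knockout on normal diet by 1.48 (adjusted p = 0.0218). Its interaction was 0.72 (-0.26 to 1.70). The labels do not say which part of each gene was deleted, so 3' tags outside it would check nothing.

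Among the core genes of fat, Pparg had the smallest unadjusted p for the interaction. Pparg (chromosome 6, 115360879 to 115490404) stood at 18.4, 19.3, 50.7, 27.4 and 30.4 CPM in control on normal diet and at 66, 86.2, 58.6, 59.2 and 43.2 CPM in control on high fat diet. Knockout values were 46.2, 62.9, 64.2, 49.1 and 76.4 CPM on normal diet and 66.6, 24, 71.2, 79.4 and 82.9 CPM under high fat feeding. Control on normal diet held the 2 lowest values of all, and replicate 2 of knockout on high fat diet lay below its 4 companions. The diet effect was 1.09 in control (adjusted p = 0.069) and 0.12 in knockout (adjusted p = 0.96). The interaction was -0.97 ± 0.41 (SE; -1.81 to -0.14), with an unadjusted p of 0.0246 and an edgeR adjusted p of 0.767, so it was not called. Pparg followed Usmg5 within groups, with a correlation of 0.77 over the 20 libraries. The interaction was -0.46 (unadjusted p = 0.161) without the 6 libraries low in Usmg5 and -0.72 with Usmg5 as a covariate. The former fit dropped 3 of 5 libraries of control on normal diet and 2 of 5 of control on high fat diet. It dropped 0 of 5 of knockout on normal diet and 1 of 5 of knockout on high fat diet. Few control libraries therefore stand behind the value of -0.46.

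Intervals of the other genes of fat among the core genes included 0. Ucp1 averaged higher on high fat diet in both genotypes, by 0.70 in control (adjusted p = 0.0943) and 0.92 in knockout (adjusted p = 0.0531), and its interaction was 0.21 (-0.40 to 0.83). Cidea, a lipid droplet protein of brown fat, had an interaction of 0.30 (-0.36 to 0.96). Ppargc1a, the coactivator of mitochondrial biogenesis, had -0.96 (-2.14 to 0.22), and Dio2, the enzyme that activates thyroid hormone, had -0.25 (-1.51 to 1.02). The interval of the hormone gene Lep ran from -3.93 to 1.48. Over the brown fat list, 14 of 32 tested genes were positive with a median of -0.13, and over the PPAR-gamma list 19 of 37 with a median of 0, beside 5709 of 12082 genes and a median of -0.04 overall. Ppara, a nuclear receptor that drives fatty acid oxidation, had -0.71 (unadjusted p = 0.00938), and the fatty acid elongase Elovl3 had 0.87 (unadjusted p = 0.0102). The desaturase Scd1 fell on high fat diet in control by 1.81 (adjusted p = 0.000505) and had an interaction of 0.88 (unadjusted p = 0.0113).

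**Figure D2:**
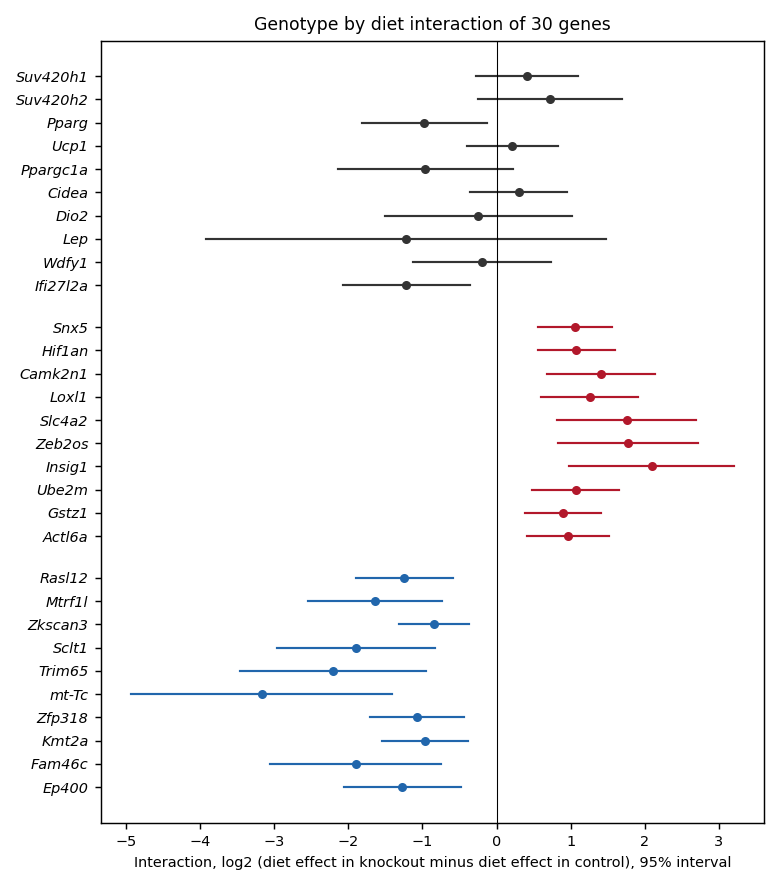
Interaction (log2) with its 95% interval for 10 core genes (grey) and for the 10 genes of each sign with the smallest unadjusted p among genes of at least 5 CPM (red positive, blue negative). No gene was called, and intervals of the red and blue genes lie off 0 because these genes were ranked by p.

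The 10 positive genes with the smallest p had interactions of 0.89 to 2.09, unadjusted p of 0.000173 to 0.00134 and adjusted p of 0.417 to 0.605. Snx5, a sorting nexin of the endosome (chromosome 2, 144250123 to 144270902), stood at 143, 108, 189, 106 and 149 CPM in control on normal diet and 114, 84.5, 105, 92.9 and 106 CPM under high fat feeding. Among knockout libraries the values were 80.2, 68.6, 89.6, 78.8 and 95.3 CPM on normal diet and 121, 152, 117, 112 and 119 CPM under high fat feeding. The knockout diets did not overlap and the control diets did. Its interaction was 1.06 ± 0.24 (0.56 to 1.55; edgeR adjusted p = 0.417), and DESeq2 called it (1.10, adjusted p = 0.00458).

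Loxl1, which cross-links elastin (chromosome 9, 58287723 to 58313212), stood at 56.2, 52.4, 70.4, 54.4 and 41.3 CPM in control on normal diet and 44.6, 77, 58.3, 97.8 and 83.4 CPM under high fat feeding. The corresponding knockout levels were 27.9, 18.9, 18.9, 24.2 and 37.9 CPM on normal diet and 72.8, 112, 71.5, 72.2 and 72.3 CPM under high fat feeding. Knockout on normal diet lay wholly below the other groups. The diet effect was 1.65 in knockout (adjusted p = 0.00216) and 0.39 in control (adjusted p = 0.397), and the interaction was 1.26 (0.60 to 1.91; adjusted p = 0.605).

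Insig1, which holds back the sterol sensor of the cholesterol pathway (chromosome 5, 28071412 to 28078662), had the largest positive value among these 10. It stood at 326, 269, 148, 692 and 486 CPM in control on normal diet and 110, 74.9, 119, 118 and 163 CPM under high fat feeding. Knockout tissue held 92.1, 47.2, 98.5, 83.6 and 186 CPM on normal diet and 97.8, 214, 81.3, 165 and 103 CPM under high fat feeding. Control on normal diet held the 4 highest values. Insig1 fell in control on high fat diet by 1.71 (adjusted p = 0.0392), its diet effect in knockout was 0.38 (adjusted p = 0.859), and its interaction was 2.09 (0.98 to 3.21; edgeR adjusted p = 0.605; DESeq2 adjusted p = 0.0331).

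Hif1an, an asparagine hydroxylase of the oxygen sensing pathway (1.08), the ubiquitin-like conjugating enzyme Ube2m (1.07), the kinase inhibitor Camk2n1 (1.40), the anion exchanger Slc4a2 (1.76), Gstz1 (0.89), the chromatin subunit Actl6a (0.97) and Zeb2os (1.77) completed the set. Zeb2os is an antisense transcript of Zeb2, and with no strand setting given its counts cannot be told apart from those of its partner. Ube2m fell in knockout on normal diet by 1.56 (adjusted p = 0.00015) and rose on high fat diet within the knockout by 1.09 (adjusted p = 0.0154). Of these 10 genes, 8 had diet effects of opposite sign in the genotypes, knockout lay wholly below control on normal diet for 6 (1.8% of all genes did), and knockout on high fat diet lay wholly above knockout on normal diet for 6 (2.47% of all genes did). The knockout effect on normal diet was called for 6 (2.65% of all genes) and that on high fat diet for 0 (0.116% of all genes). The 10 genes were ranked by a p from the same libraries, so nothing is read from these counts.

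The 10 negative genes had interactions of -0.84 to -3.17 and unadjusted p of 0.000622 to 0.00268. Rasl12, a small GTPase of the Ras family (chromosome 9, 65398485 to 65416138), stood at 45.4, 69.4, 25, 48.6 and 53.9 CPM in control on normal diet and 66.7, 60.8, 62.8, 61.6 and 38.7 CPM under high fat feeding. In the knockout, levels were 64.7, 68.4, 91.5, 54.3 and 55 CPM on normal diet and 38, 36.3, 32.9, 25.2 and 37.3 CPM under high fat feeding. Knockout on high fat diet lay wholly below control on high fat diet and below knockout on normal diet. Its interaction was -1.24 (-1.90 to -0.59; adjusted p = 0.605).

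Kmt2a, a methyltransferase of lysine 4 on histone H3 (chromosome 9, 44803355 to 44881352), stood at 42.1, 26.3, 45, 37.8 and 53.2 CPM in control on normal diet and 51, 38.5, 43.6, 58.6 and 62.3 CPM under high fat feeding. Levels in knockout libraries were 90.9, 72.3, 78.8, 113 and 70.6 CPM on normal diet and 52.5, 50.6, 71.8, 47.5 and 49.6 CPM under high fat feeding. Knockout on normal diet was highest, overlapping only replicate 3 of knockout on high fat diet. Kmt2a rose in knockout on normal diet by 1.06 (adjusted p = 0.00908), was 0.10 on high fat diet, and had an interaction of -0.96 (-1.54 to -0.38; adjusted p = 0.605).

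The chromatin remodeller Ep400 (-1.27), the zinc finger genes Zkscan3 (-0.84) and Zfp318 (-1.08), the ubiquitin ligase Trim65 (-2.20), the centriole protein gene Sclt1 (-1.90), the mitochondrial release factor gene Mtrf1l (-1.64), Fam46c (annotated Tent5c, a poly(A) polymerase, -1.90) and mt-Tc, a mitochondrial transfer RNA (-3.17), made up the rest. mt-Tc stood at 40.9 to 442 CPM in knockout on normal diet and at 3.01 to 26.5 CPM in the other groups. Transfer RNAs are not the usual targets of oligo-dT priming, and what its tags stand for was not tested. Of these 10 genes, 9 had diet effects of opposite sign, 8 lay wholly above control in knockout on normal diet (2.53% of all genes did) and 8 were called for the knockout on normal diet (2.65% of all genes), counts that the ranking by p also touches. Below 5 CPM, Trim12a (-5.58, edgeR adjusted p = 0.17) and Pdia5 (-3.32, edgeR adjusted p = 0.237) had smaller p than any of these 20. DESeq2 called both (adjusted p = 0.00343 for each). Trim12a had 0 to 0.251 CPM in control on normal diet and 0.817 to 3.91 CPM in the other groups, so its fitted value depends on the prior count and is no measure of size.

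**Figure D3:**
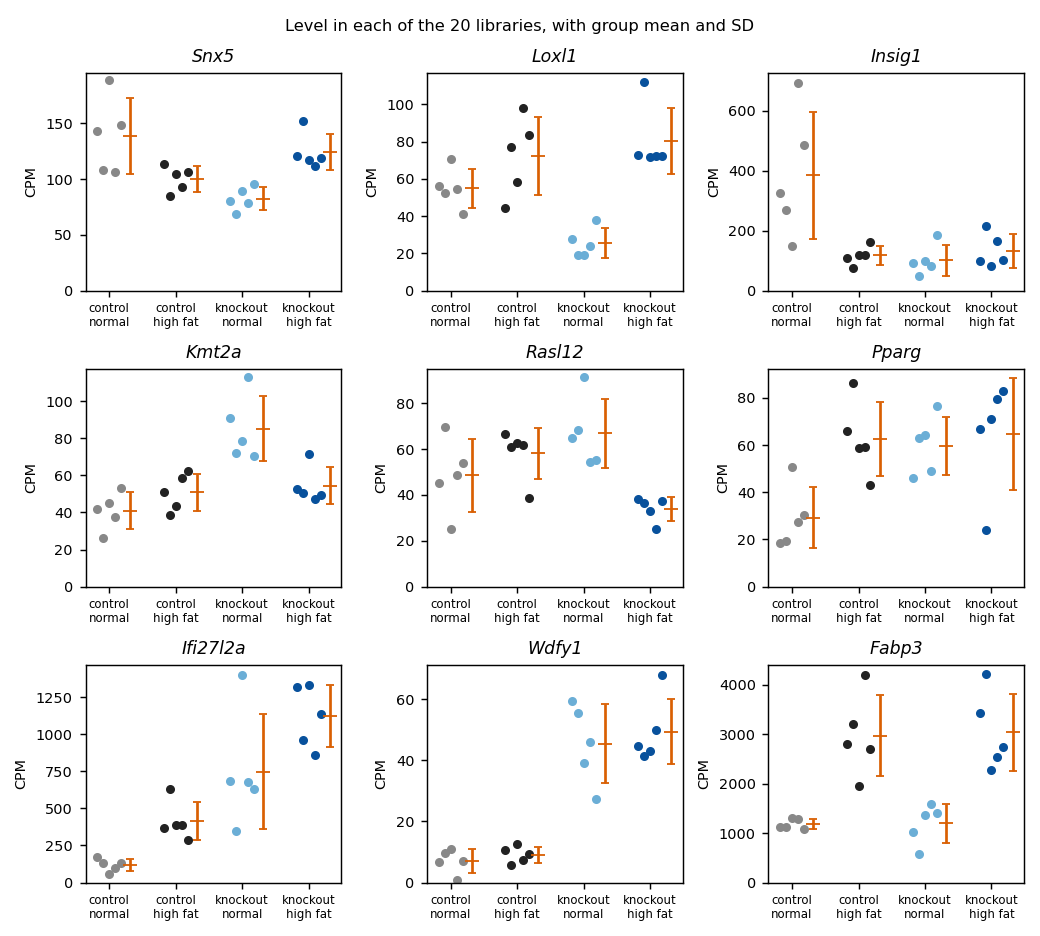
CPM of 9 genes in each of the 20 libraries (points), with group mean and SD in orange. Loxl1 and Snx5 are lowest in knockout on normal diet, Insig1 is highest in control on normal diet, and Wdfy1 and Fabp3 repeat the same genotype or diet difference in both strata.

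The group that stood farthest from the other 3 was often control on normal diet. It was the farthest group for 44.7% of all genes, for 54.8% of genes with a positive interaction at an unadjusted p below 0.05 and for 65.3% of those with a negative one. Control on normal diet was also the group with the largest spread and the highest muscle markers. Diet effects of opposite sign were found in 84% and 82.5% of the positive and negative genes at an unadjusted p below 0.05, against 40% of all genes. The genes at an unadjusted p below 0.05 were chosen on the interaction in the same libraries. Nothing is read from their shares of opposite sign or from their shares by farthest group.

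**Figure D4:**
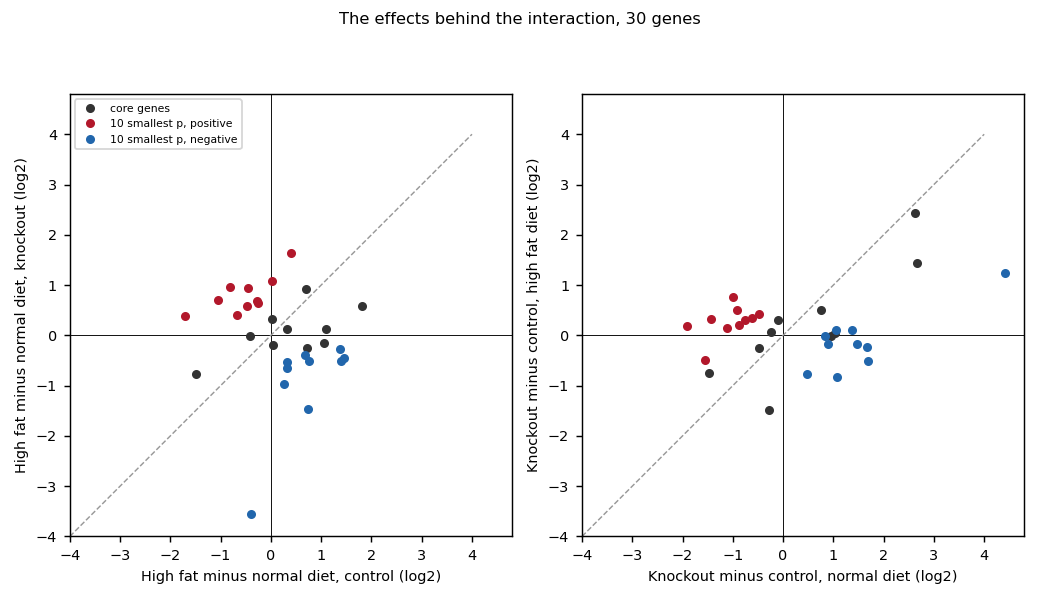
Diet effect in knockout against diet effect in control (left) and knockout effect on high fat diet against that on normal diet (right), all log2, for the 10 core genes and the 10 genes of each sign with the smallest p. Most red and blue points lie near 0 on the high fat axis of the right panel. On that axis 0 of the 20 genes were called, beside 0.116% of all genes. The 20 were ranked by a p from the same libraries, so nothing is read from this.

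Interferon-stimulated genes, which cells switch on in answer to viral nucleic acid, leaned to negative values: 22 of 23 tested genes were negative with a median of -0.93, 0 were called and 3 had an unadjusted p below 0.05 (1 to 9 under the alternatives), beside 6373 of 12082 genes and a median of -0.04 overall. The list median of the diet effect was 0.40 in control and -0.38 in knockout. Ifi27l2a, a small interferon-induced membrane protein gene (chromosome 12, 103433873 to 103443680), stood at 172, 130, 60.2, 95.8 and 133 CPM in control on normal diet and 370, 630, 390, 391 and 287 CPM under high fat feeding. For the knockout the values were 682, 350, 1400, 681 and 632 CPM on normal diet and 1320, 964, 1330, 859 and 1140 CPM under high fat feeding. Control on normal diet lay wholly below every other group. Ifi27l2a rose on high fat diet in control by 1.80 (adjusted p = 0.00563) and in knockout on normal diet by 2.66 (adjusted p = 0.000123). In knockout it averaged 749 CPM on normal and 1120 CPM on high fat diet, while the list median of that diet effect was -0.38. On high fat diet it averaged 414 CPM in control, below knockout, while the list median of that knockout effect was -0.69. Ifi27l2a thus departed from the list medians in these 2 effects. The interaction of Ifi27l2a was -1.22 (-2.08 to -0.36; unadjusted p = 0.00713, adjusted p = 0.666).

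Ifih1, a sensor of double-stranded RNA, had -1.77 (-3.18 to -0.35) at 0 to 9.68 CPM, and Stat2, a transcription factor of the interferon response, had -1.20 (-2.35 to -0.05) at 2.32 to 9.43 CPM. Both levels are low, so few counts stand behind each library. Their promoters are shown because both hold the interferon-stimulated response element, searched on both strands as GAAA, 2 bases of any kind and GAAAC, and printed in capitals. The Stat2 copy lies on the opposite strand and so reads as the reverse complement, and the Ifih1 copy lies after the gene start. Sequences run from 250 bases before to 50 after the gene start (RefSeq, GRCm38.p6), for Ifih1 at chr2:62646206-62646505 on the minus strand and for Stat2 at chr10:128270248-128270547 on the plus strand.
Ifih1: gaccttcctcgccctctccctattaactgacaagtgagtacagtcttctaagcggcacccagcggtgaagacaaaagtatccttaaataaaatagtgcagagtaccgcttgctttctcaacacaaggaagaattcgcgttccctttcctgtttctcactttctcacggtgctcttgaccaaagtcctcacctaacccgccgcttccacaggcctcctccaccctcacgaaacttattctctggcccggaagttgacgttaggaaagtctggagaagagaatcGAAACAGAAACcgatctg
Stat2: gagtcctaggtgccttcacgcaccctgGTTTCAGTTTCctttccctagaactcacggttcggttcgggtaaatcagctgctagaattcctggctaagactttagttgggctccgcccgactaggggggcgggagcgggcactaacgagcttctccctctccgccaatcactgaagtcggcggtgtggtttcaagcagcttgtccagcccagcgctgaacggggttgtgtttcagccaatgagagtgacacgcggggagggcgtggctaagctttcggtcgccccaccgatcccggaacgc
The element was found in 9 of the 17 list members with a promoter in the table, and in 0.819% of 32851 promoters. Of the other 2 motifs searched, the heat shock element (GAA, TTC and GAA, each 2 bases apart) was found in 3 of 20 members of the heat shock list (0.603% of promoters) and an exact copy of the sterol regulatory element in 0 of 17 members of the cholesterol list (0.0913% of promoters). The promoters to print were chosen after the matches were seen, and a match is a description of the letters only.

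Heat shock and protein folding genes had 17 of 25 negative values, a median of -0.47 and 7 genes with an unadjusted p below 0.05, all negative, beside 2.93% of all genes. That count was 2 with limma-voom and sample weights, 3 without the 6 libraries low in Usmg5 and 12 with plain library totals. Hsp90aa1, the inducible HSP90 chaperone, stood at 52.6, 38.8, 56.7, 35.5 and 70.1 CPM in control on normal diet and 162, 125, 54.5, 85.8 and 62.3 CPM under high fat feeding. The knockout showed 67.6, 50.8, 110, 166 and 84 CPM on normal diet and 95, 54.7, 48.3, 80 and 50.5 CPM under high fat feeding. All 4 groups overlapped, and the interaction was -1.49 (-2.41 to -0.57; adjusted p = 0.605). The small heat shock gene Hspb1 had -1.24. Hspa1b had -5.65, with 36.5 CPM in replicate 4 of knockout on normal diet and 0 to 14.8 CPM in the other 19 libraries, a fitted value that likewise depends on the prior count, and its counts can be shared with the near-identical Hspa1a. Immediate early genes, which respond within minutes to stimuli and to handling of tissue, were negative for 13 of 17 with a median of -0.43. The nuclear receptor genes Nr4a1 (-4.11) and Nr4a3 (-3.11) stood at 18.6 to 169 and 3.29 to 13.3 CPM in knockout on normal diet, where Nr4a3 did not overlap the other groups (0 to 3.14 CPM) and Nr4a1 did. The median of Nr4a3 in control on normal diet was 0 CPM, so its fitted value also depends on the prior count. It was -7.9 without replicate 5 of control on normal diet.

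Red blood cell markers were negative for 5 of 5 genes with a median of -1.20, and 4 had an unadjusted p below 0.05, beside 2.93% of all genes. That count was 2 with limma-voom, with or without sample weights, and also without the 2 libraries highest in muscle markers or the 6 low in Usmg5. Their summed level was 1370 to 1990 CPM in control on normal diet, 2330 to 4880 CPM in control on high fat diet, 1070 to 4120 CPM in knockout on normal diet and 1680 to 3010 CPM in knockout on high fat diet. The alpha globin genes Hba-a1 (-1.11) and Hba-a2 (-1.20) are near-identical copies, so they are not separate evidence. In bulk tissue, more cells of a type and more RNA per cell cannot be told apart.

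Nuclear genes of oxidative phosphorylation were negative for 40 of 49 with a median of -0.27, which was -0.06 with Usmg5 as a covariate and -0.12 without the 2 control libraries highest in muscle markers. Usmg5 is itself part of the ATP synthase, so the fit with it as a covariate is no separate test of this list. Atp5h had -0.81 and Cox6c -0.53 (unadjusted p = 0.0412 and 0.0499), and Atp5h followed Usmg5 with a within-group correlation of 0.80. The share of counts from mitochondrially encoded genes was 14.8 ± 2.75% and 20.7 ± 3.49% in control on normal and high fat diet and 18.6 ± 0.536% and 22.1 ± 3.87% in knockout (SD, n = 5 each). The difference of differences was -2.44 percentage points, with an exact two-sided permutation p of 0.399 over 63504 regroupings of genotype within diet. Those regroupings are exact only if genotype has no effect on either diet, so this p does not test the interaction alone.

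Extracellular matrix genes were positive for 20 of 30 with a median of 0.23, which was -0.01 without the 2 control libraries highest in muscle markers. Cholesterol synthesis genes were positive for 15 of 23 with a median of 0.21. Fdft1, squalene synthase, went the other way with -0.83, at 55.2 to 78.6 CPM in knockout on normal diet and 16.8 to 60.6 CPM in the other groups. Antioxidant genes were positive for 16 of 22 with a median of 0.21, led by the sulfiredoxin gene Srxn1 (1.00, unadjusted p = 0.00485). Skeletal muscle markers were positive for 11 of 28 with a median of -0.86 in edgeR, but for 28 of 28 with a median of 2.03 in limma-voom, so no direction is given for them.

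**Figure D5:**
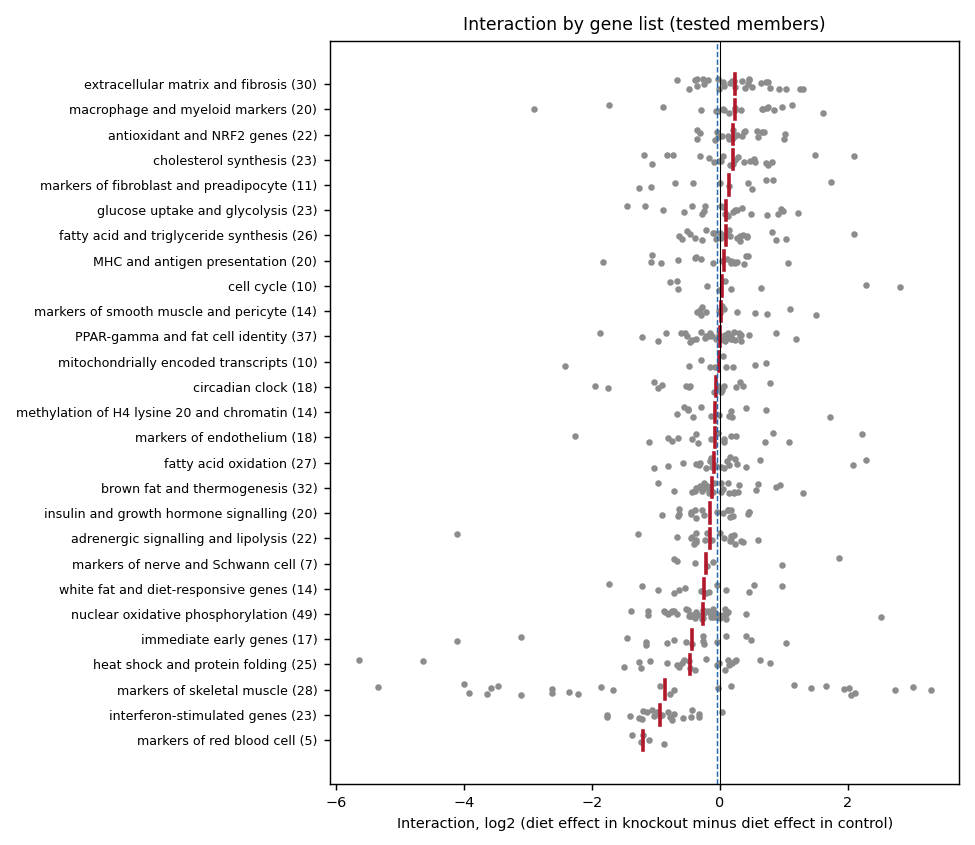
Interaction (log2) of each tested member (points) of the 27 lists with at least 5 tested members, with the list median in red, 0 as a solid line and the median of all 12082 genes, -0.04, as a dashed line. The red blood cell list (-1.20) and the interferon list (-0.93) have the lowest medians, and skeletal muscle markers spread widest.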

How the data were processed

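Per the labels' protocols, total RNA of brown adipose tissue was primed with oligo-dT, using the QuantSeq kit for 3' ends. Per the submitters' processing notes, STAR 2.5.3a, featureCounts and limma were used on mm10 and GRCm38. No source used here gives the strand setting or the filters. The authors deposited raw counts per gene and library, which were not normalised. Columns were matched to samples by the number in the description field, with 0 sample columns unmatched. Of 13251 gene names, 18 had turned into dates (0.09% of counts) and were left out.

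From there, genes were kept with filterByExpr (minimum count 10), which left 12082 of 13233. Libraries were scaled by TMM, and 1 mean per group was fitted with edgeR 4.0.16 (quasi-likelihood, robust) in R 4.3.3. P-values were adjusted by Benjamini-Hochberg across the 12082 genes, with calls below 0.05. The SE is the absolute log2 value divided by the square root of F, and intervals cover 95%. The fit was also run on simulated counts with independent noise and no muscle or Usmg5 differences between libraries. Nothing is concluded from that run about these libraries. DESeq2 1.42.0 and limma 3.58.1 (voom) were alternatives.

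The comparison, the 29 gene lists and the genes to be named were chosen with earlier results of these data known. Named were 10 core genes, the 10 genes of each sign with the smallest p and a mean of at least 5 CPM (none was called), and the 3 members with the smallest p of each list with at least 5 tested members. Genes called in both strata, Trim12a, Pdia5 and Usmg5 were named after their values were seen. Not every gene that the rule selects is described, and 1 of them is left out of the text on purpose. Predicted genes, Rik clones and pseudogene entries were not named. Promoters come from RefSeq (GRCm38.p6). No 2 libraries of a group agreed within sampling noise (lowest chi-square 8.3 per gene over 40 pairs).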

Additional observations from a re-analysis of the deposited data

Results flagged for a closer look

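In each group of 5 libraries, the highest and lowest value of 30 genes (log2(CPM + 1)) was compared with its nearest neighbour, and 8 of 120 groups had a library far from the others. Chance flags about 1 in 20 groups. Replicate 2 of knockout on high fat diet was the library in 4 of the 8. It had 24 CPM of Pparg against 66.6 to 82.9 CPM in the other 4 libraries, 152 CPM of Snx5 against 112 to 121 CPM, 112 CPM of Loxl1 against 71.5 to 72.8 CPM, and 103 CPM of Actl6a against 63.7 to 70.3 CPM. This library is the 1 of its group that was low in Usmg5, at 24.1 CPM. Without it the interaction of Pparg, Snx5, Loxl1 and Actl6a kept its sign, as it did in every fit with 1 library left out. Snx5, Loxl1 and Actl6a were ranked by a p from these same libraries, so their kept sign is no test. Over the fits with 1 library left out, the Pparg interaction ran from -1.28 to -0.76, beside -0.97 with all libraries.

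Ucp1 was 11100 CPM in replicate 1 of knockout on high fat diet against 7050 to 7370 CPM in the others. Wdfy1 was 0.899 CPM in replicate 4 of control on normal diet against 6.59 to 10.9 CPM. Rasl12 was 38.7 CPM in replicate 5 of control on high fat diet against 60.8 to 66.7 CPM. Kmt2a was 71.8 CPM in replicate 3 of knockout on high fat diet against 47.5 to 52.5 CPM.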

How the results depend on the processing

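The count of interaction genes was 0 under every alternative run except 3: DESeq2 called 12, leaving out replicate 5 of control on normal diet gave 2 and leaving out replicate 2 of control on high fat diet gave 1 (range 0 to 2 over the 20 libraries left out in turn). Among the 12 were Snx5, Hif1an, Insig1, Trim12a and Pdia5, and 4 muscle genes. With the replicate number as a block the count was 0 (646 at an unadjusted p below 0.05). The numbers do not pair the samples: the correlation of 30 same-numbered pairs ran from -0.57 to 0.40, 9 were above 0.1, and 1 library lay closest to its own number.

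The counts of the simple effects moved more, and the cause was not tested. For diet in control (96) they were 502 with DESeq2, 54 with limma-voom, 25 with sample weights, 151 without robust dispersion, 39 with the replicate block, 2 with the muscle score and 25 without the 2 libraries highest in muscle markers (21 to 358 with 1 library left out). For diet in knockout (45) they were 168 with DESeq2, 291 with sample weights, 14 with the block, 14 with the muscle score, 100 without those 2 libraries, 122 without the 6 libraries low in Usmg5 and 105 with Usmg5 as a covariate (6 to 67). For knockout on normal diet (320) they were 884 with DESeq2, 135 with limma-voom, 28 with sample weights, 157 with the block, 37 with the muscle score, 84 without the 2, 77 without the 6 and 104 with Usmg5 (127 to 888). For knockout on high fat diet (14) they were 71 with DESeq2, 132 with sample weights, 24 without the 2 and 27 with Usmg5 (10 to 17). Leaving out 1 library moved the count by over 1.5 times for diet in control (control on normal diet 1 to 5, control on high fat diet 1 to 4, knockout on high fat diet 4), for diet in knockout (knockout on normal diet 2 to 5, knockout on high fat diet 1, 2, 4 and 5) and for knockout on normal diet (control on normal diet 3 and 4, knockout on normal diet 1 to 5).

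Of 103 named genes under 34 alternatives, 12 values changed sign. None of the named genes was called for the interaction in edgeR with all libraries, so no called gene was there to compare. With 1 library left out, Dio2 ran from -0.576 to 0.05 (positive without replicate 5 of control on high fat diet or replicate 4 of knockout on normal diet), Lep from -1.733 to 0.556 (positive without replicate 5 of knockout on normal diet) and Wdfy1 from -0.406 to 0.033 (positive without replicate 4 of control on normal diet). Without the 6 libraries low in Usmg5, Wdfy1 was 0.10, Tkt -0.11, Ube2c -1.42, Myl1 -0.01 and Lmod1 -0.52. Lmod1 was also -0.52 without the 2 libraries highest in muscle markers and -0.015 (limma-voom, sample weights). mt-Nd3 was 0.013 with Usmg5 as a covariate. The fits on muscle-rich and Usmg5-low libraries left out, and the Usmg5 covariate, were chosen after seeing the data. The median of all genes was -0.16 with plain library totals.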
